A study of Mus musculus with 4 samples.

Results

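The genes of the cytosolic ribosomal proteins were followed in mouse T helper cells that were driven towards the Th17 fate with and without an inhibitor of the protein kinase CK2. They were taken by name: symbols of the form Rpl or Rps with a number, with or without one of the suffixes a, l, x, al and l1, together with Rpsa, Rplp0, Rplp1 and Rplp2. This rule gave 84 of the 37583 features of each file, of which 52 encode proteins of the large (60S) subunit or their paralogs and 32 proteins of the small (40S) subunit or their paralogs. No measured value entered the choice. Pseudogenes with a -ps name and the Rps6k kinase genes were kept apart from these 84 genes.

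The cytosolic ribosome translates mRNA into protein. Its small subunit reads the mRNA, its large subunit joins amino acids, and each ribosomal protein is present once per ribosome except the paired proteins of the P stalk, the acidic arm of the large subunit that recruits and activates elongation factors. T cells that leave the naive state enlarge and make many more ribosomes. Mammalian ribosomal protein mRNAs typically start with a run of pyrimidines, the 5′ terminal oligopyrimidine (TOP) motif, through which mTORC1 signalling controls their translation. CK2 phosphorylates the C-terminal ends of the P-stalk proteins, among its many known substrates.

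There were 4 libraries of C57BL/6 spleen naive CD4+ T cells, 1 per group, each made from total RNA and sequenced on a MiSeq. All 4 cultures were activated with plate-bound antibodies to CD3 and CD28 in the mixture called aTh17: 10 ng/ml IL-1β, 10 ng/ml IL-6, 20 ng/ml IL-23 and 10 µg/ml each of antibodies to IL-4 and IFN-γ. The DMAT culture received 1.5 µM DMAT and the CX4945 culture 1 µM CX4945, both for 24 h, and each inhibitor has a control library of its own that received neither. The pairing comes from the sample titles alone, which name a control for each inhibitor. Each pair is called an experiment below, the DMAT pair the first and the CX4945 pair the second by order of listing. The inhibitors differ in compound, dose and pair of libraries, so their values are set side by side and no difference between them was tested. The labels do not say whether the 2 pairs came from separate animals, so the spread behind every p-value is one between single libraries and may be technical.

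In the first experiment the control held 2772525 exon reads and the DMAT library 2523446, and in the second the control held 2285545 and the CX4945 library 2056635. The 9 T cell markers checked, Cd3e and Cd4 among them, each had 170 to 2286 reads per library. The 20 markers of CD8 T cells, B cells, myeloid, dendritic, NK and erythroid cells together had 22, 14, 15 and 21 reads in the same order, and 10 of them had none in any library, the NK and erythroid markers included. In RNA of a whole culture, fewer cells of a type and less RNA per cell cannot be told apart. AY036118, a transcript that matches ribosomal RNA, stood at 27.7, 77.4, 29.8 and 91.4 counts per 1000000 scaled reads (CPM) in the 4 libraries, and the part of such carry-over in the results below was not tested.

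The starts of these genes were read for the TOP motif. Promoter windows from RefSeq (mouse build GRCm38.p6) were found for 63 of the 84 genes. In 13 of them, or 20.6%, the annotated first base is a C followed by at least 4 pyrimidines, the minimal form of a TOP motif, against 3.01% of 27025 genes. Within 5 bases of the annotated start the run was found in 46.0% of the ribosomal protein genes and 21.2% of all genes. A gene was counted if any of its windows matched, and 10 of the 63 genes had more than 1 window. The windows below hold 10 bases before the start and the first 20 transcribed bases, with the pyrimidine run from the first transcribed base in capitals. They are those of Rps6, the small-subunit protein phosphorylated by S6 kinase, of the stalk protein gene Rplp2, of Rpl15 with the longest run (13 bases), and of Rps27 and Rps15a, whose reads are described further on. The runs differ in length and in the order of C and T.
Rps6 (chr4:86857348-86857377, minus strand): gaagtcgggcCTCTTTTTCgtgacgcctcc
Rplp2 (chr7:141447641-141447670, plus strand): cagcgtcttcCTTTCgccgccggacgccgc
Rpl15 (chr14:18270967-18270996, minus strand): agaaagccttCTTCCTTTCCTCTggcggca
Rps27 (chr3:90213629-90213658, minus strand): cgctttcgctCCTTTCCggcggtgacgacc
Rps15a (chr7:118116128-118116157, minus strand): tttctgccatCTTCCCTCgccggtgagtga

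Other promoter motifs were searched on both strands of the 300-base windows around the start. Genes were again counted if any of their windows matched. The ETS core CCGGAAG was in 39.7% of the 63 ribosomal protein genes and 9.93% of all genes, GGGCGG (the SP1 core) in 61.9% and 38.2%, and AAGATGGC (the YY1 core) in 9.52% and 3.19%. The E-box CACGTG (9.52% and 8.09%) and TATAAA (11.1% and 15.7%) were present at shares nearer to those of all genes. CCGGAAG and AAGATGGC can share their AAG, none of the motifs holds another whole, and a match is a description of letters, not a binding site.

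The ribosomal protein genes took between 8.18% and 8.64% of the exon reads of each library. The share was 8.48% in the control for DMAT (95% exact binomial interval 8.45% to 8.52%, counting error only) and 8.28% with DMAT (8.24% to 8.31%). In the other experiment it was 8.18% in the control and 8.64% with CX4945. DMAT was thus below its control and CX4945 above its own. The 2 untreated libraries differed as well, and the CX4945 library was the highest of the 4.

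**Figure D1:**
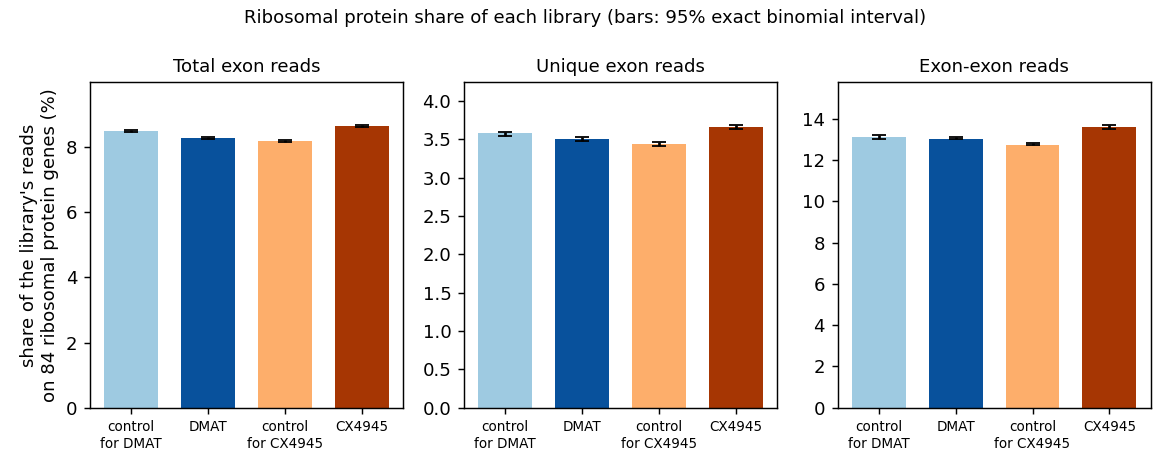
Share (%) of each library's reads that fall on the 84 ribosomal protein genes, for total exon reads, unique exon reads and reads across exon junctions, with a bar per library and 95% exact binomial intervals. In each kind of read CX4945 is the highest library and the control for CX4945 the lowest.

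The same order was found with other kinds of read. Among unique exon reads, which fit 1 place only, the shares were 3.58%, 3.51%, 3.44% and 3.66% in the order DMAT's control, DMAT, CX4945's control, CX4945. Among reads that cross an exon junction they were 13.1%, 13.0%, 12.7% and 13.6%. The level of the share depends strongly on the kind of read, and the order of the libraries does not.

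As a ratio of scaled reads summed over the 84 genes, DMAT stood at 0.9685 of its control (95% interval 0.9628 to 0.9742) and CX4945 at 1.067 of its control (1.06 to 1.074). The control for CX4945 stood at 0.9663 of the control for DMAT (0.9604 to 0.9722). On the log2 scale these are -0.05, 0.09 and -0.05, so the untreated libraries lay as far apart as DMAT and its control. These intervals cover counting error only.

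The subunits moved alike within each pair. Genes of the 60S subunit summed to 0.9682 of the control with DMAT (0.9607 to 0.9757) and genes of the 40S subunit to 0.9689 (0.9601 to 0.9778). With CX4945 the values were 1.062 (1.053 to 1.071) and 1.074 (1.063 to 1.085). Reads on 60S genes per read on 40S genes came to 1.40 in the control for DMAT, 1.40 with DMAT, 1.40 in the control for CX4945 and 1.38 (1.37 to 1.39) with CX4945. The balance between the subunits was close to constant over the 4 libraries.

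Few of the reads lay outside exons. Such reads made up 1.57%, 1.35%, 1.61% and 1.63% of the gene reads of the ribosomal protein genes in the order above, against 13.3% to 13.9% for all other features. The DMAT library was the lowest here (1.30% to 1.40%), and the other 3 overlapped in their intervals.

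Of the 84 genes, 81 had at least 20 reads over the libraries. The 3 others are paralogs known for expression in other tissues: Rpl3l, the striated-muscle form of Rpl3, and Rpl10l, the testis form of Rpl10, had no read in any library, and Rpl39l had 6, 5, 0 and 0 reads. A count of 0 allows up to 3 reads, which is 1.08 to 1.47 CPM depending on the library. The remaining 81 spanned a wide range of levels. Per exon length, as CPM divided by the exon length in kilobases (RPKM, mean of the 4 libraries), the median gene stood at 645.9.

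At the top stood Rplp1, a P-stalk protein, with 4225 RPKM in the control for DMAT, 3789 with DMAT, 3812 in the control for CX4945 and 3761 with CX4945. It was followed by the large-subunit genes Rpl32 (mean 2524 RPKM) and Rpl4 (2248 RPKM) and by Rps3a of the small subunit (2224 RPKM). The ranges of Rpl4 (2127 to 2365 RPKM) and Rps3a (2143 to 2301 RPKM) overlapped with each other and with that of Rps26, the next gene (2123 to 2323 RPKM), so these 3 cannot be ordered. Rpl32, at 2442 to 2638 RPKM, lay above both in all 4 libraries, and Rplp1 above it.

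The lowest of the expressed genes per exon length were Rps15a (mean 94.4 RPKM), Rpl35a (62.2 RPKM), Rpl21 (25.6 RPKM) and Rpl13 (23.2 RPKM). The ranks depend in part on the exon length given in the files, which joins all annotated exons and has a median of 3.15 times the coding length in GENCODE vM21. It is 6262 bases for Rps15a against 393 coding bases, and 3526 against 333 for Rpl35a. Per coding length, among the 80 of these genes with a coding sequence under the same symbol, Rps15a ranked 61 and Rpl35a 76, while Rpl21 and Rpl13 remained the lowest at ranks 79 and 80. At the top Rplp1 ranked 2 on that scale, and Rpl41, whose coding sequence is 78 bases, ranked 1. Rpl32 ranked 9 and Rpl4 ranked 21, so the order of the high genes below Rplp1 holds only per exon length.

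**Figure D2:**
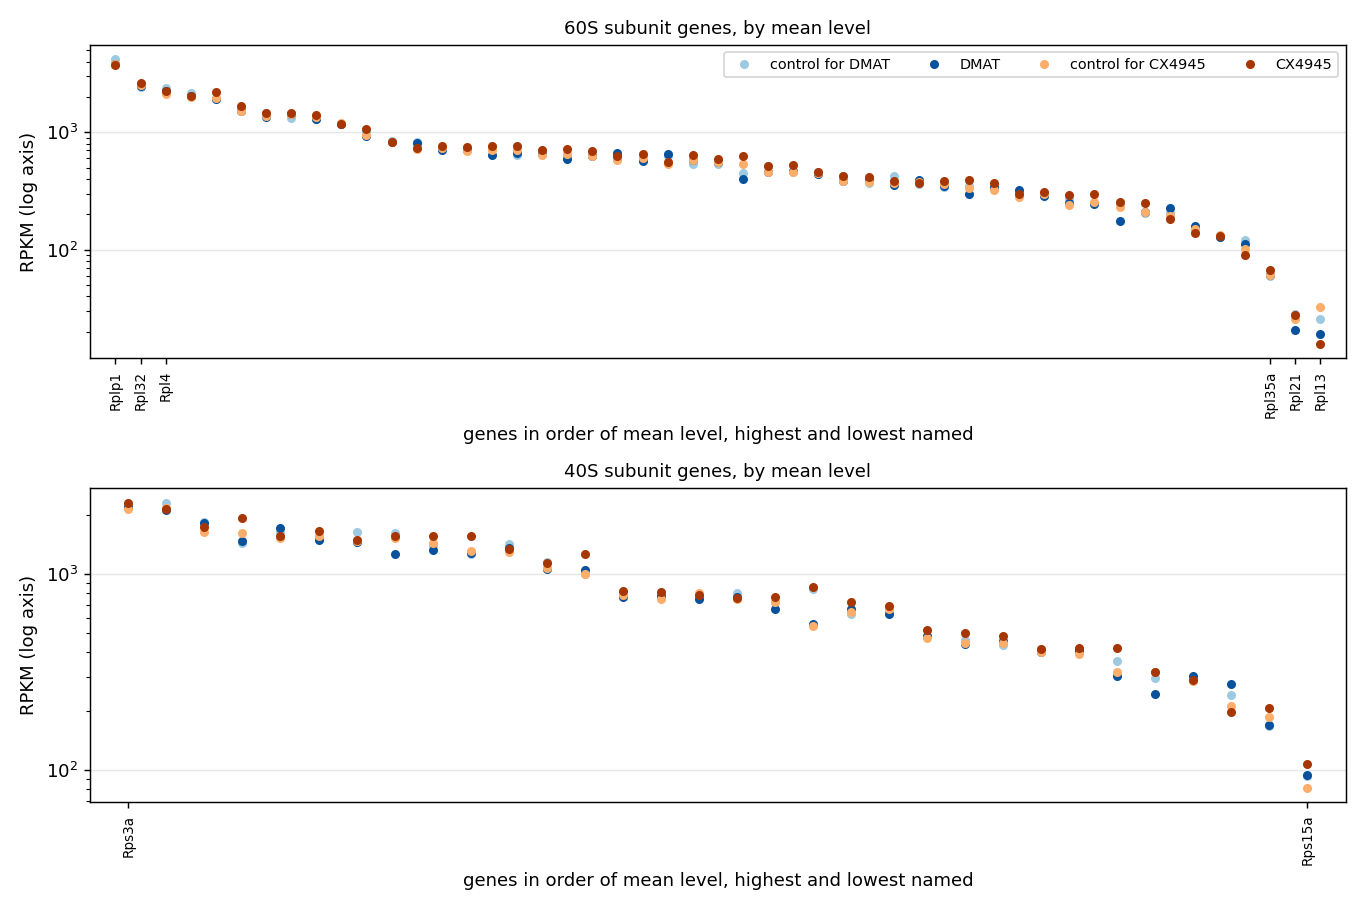
RPKM (log axis) of the 81 ribosomal protein genes with at least 20 reads, 60S genes above and 40S genes below, with 1 point per library and the symbols of the 4 highest and 4 lowest genes over both subunits. Points of a gene sit close together across libraries, and the genes span from Rplp1 at a mean of 3896.7 to Rpl13 at 23.2.

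The order of levels was nearly the same in every library, with Spearman's rho over the 81 genes between 0.9829 and 0.9923 for any 2 libraries, a description across genes. The ratio of the highest to the lowest library had a median of 1.13 over the 79 genes with at least 1000 reads, against 1.2 over 2319 other genes with as many. Of these 79 genes, 67 (84.8%) had a highest library less than 25% above the lowest, against 66.5% of the others. The shared floor of 1000 reads does not match the depth of the 2 groups. In the DMAT pair 72 ribosomal protein genes and 354 other genes had at least 2000 reads. Counting error widens this ratio in genes read less deeply, and its part in the difference was not tested. Over all 81 genes, the 3 that varied by more than 1.5-fold were Rps27, Rpl28 and Rpl13. Rpl13 had 531 reads in all and is not among the 79. All 3 are described below and were chosen for this measure after the values were seen.

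Most ribosomal protein genes have processed pseudogenes that share long stretches with them, and this limits which reads can be placed. In the median gene 18.2% of the exon reads were unique. Of the exon reads of the ribosomal protein genes together, 34.3% to 34.6% were unique in each library, against 81.5% of the reads of all genes together. Of the 82 genes with any read, 22 had under 10% unique reads, 43 had 10 to 50% and 17 had at least 50%. Rpl4, Rpl8, Rps3 and Rps9 were among those at 100% by rounding. At the other end Rpl23a had 0.411%, Rps27 0.558% and Rps6 0.722% unique reads. In GENCODE vM21, 577 other genes or pseudogenes matched one of 83 coding sequences at 95% identity or more over at least 50% of it, and 364 of them have a row in the files. Rpl21 had the most copies, 57. The number of copies went with a low unique share (Spearman's rho = -0.53) and hardly with the level per exon length (-0.17), both across genes.

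Across both experiments no ribosomal protein gene passed the joint test of inhibitor against control. This was edgeR's quasi-likelihood test with the experiment as a block and Benjamini-Hochberg (BH) adjustment over 9629 genes, and it called 0 of the 81 ribosomal protein genes tested. Over all genes 0.561% were called, 17 that rose (0.177%) and 37 that fell (0.384%). At an unadjusted p under 0.05 there were 3 ribosomal protein genes, Rpl13, Rps7 and Rps15a, which is 3.7% of them against 7.23% of all genes. DESeq2 with the same block called 0 as well, with 1 ribosomal protein gene and 0.966% of all genes at an unadjusted p under 0.05. The lowest adjusted p in edgeR's test was 0.0664, for Rpl13.

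With DMAT the median ribosomal protein gene had a log2 ratio of -0.03 to its control, against 0.01 for all 9649 genes with at least 20 reads in the pair. There were 31 genes above and 50 below the control. No ribosomal protein gene was 2-fold lower or higher, where 1.27% and 1.09% of all genes were. At least 20% lower were 5 of the 81, Rpl10, Rpl13, Rpl21, Rps12 and Rps27, against 13.0% of all genes, and 0 were at least 25% higher, against 13.7%. The 95% counting interval lay below 1 for 28 of the 81 genes, where 9.69% of all genes had this, and above 1 for 6, where 9.24% of all genes had it. Ribosomal protein genes are deeply read, and intervals narrow with depth. Among genes with at least 2000 reads in the pair the interval lay below 1 for 24 of 72 ribosomal protein genes (33.3%) and 93 of 354 others (26.3%), or 27.5% of all 426. It lay above 1 for 5 (6.94%) and 71 (20.1%), 17.8% of all.

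With CX4945 the median ribosomal protein gene had a log2 ratio of 0.09, against 0.00 for all 9358 genes. Here 69 genes were above and 12 below the control. The interval lay above 1 for 39 of the 81 (7.3% of all genes) and below 1 for 1, Rpl13 (7.42% of all genes). Among genes with at least 2000 reads in the pair it lay above 1 for 37 of 70 ribosomal protein genes (52.9%) and 56 of 265 others (21.1%), or 27.8% of all 335. It lay below 1 for 0 and 47 (17.7%), or 14.0% of all. The sizes were small: 4 genes, Rps7, Rps13, Rps15a and Rps27, were at least 25% higher (12.6% of all genes), and Rpl13 was the 1 gene at least 20% lower (13.0% of all genes) and also the 1 gene 2-fold lower (0.919% of all genes). No gene was 2-fold higher (0.887% of all genes).

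The control for CX4945 set against the control for DMAT gives the same measure with no inhibitor in either library. Its median was -0.03, with 31 ribosomal protein genes above and 50 below, the same split as with DMAT. The interval lay below 1 for 25 of 81 (9.16% of all genes) and above 1 for 9 (9.49% of all genes). Among genes with at least 2000 reads in the pair it lay below 1 for 22 of 71 ribosomal protein genes (31.0%) and 75 of 321 others (23.4%). It lay above 1 for 8 (11.3%) and 92 (28.7%). The comparison shares a library with each of the other 2, so its likeness to them is not an independent observation.

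**Figure D3:**
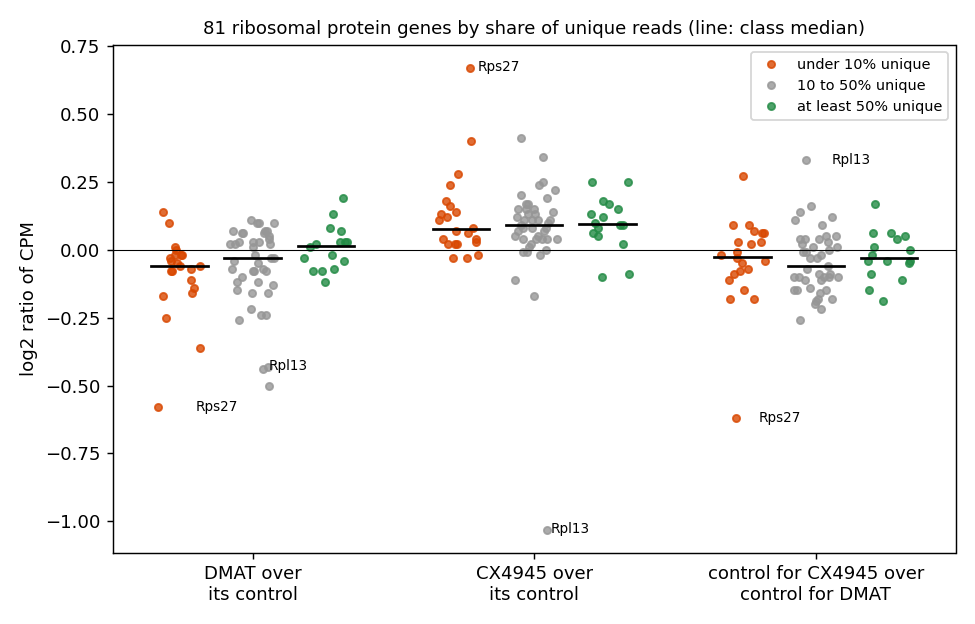
Log2 ratio of CPM for the 81 ribosomal protein genes in the 3 comparisons, with points grouped by the share of unique reads and a line at each group's median. With CX4945 the medians of all 3 groups lie above 0, and the points farthest from 0 are Rps27 and Rpl13, not genes with at least 50% unique reads.

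The ratios of genes whose reads can be placed had the narrowest range of the groups by unique share, over the fewest genes. Their median ratio of the highest to the lowest library was 1.13, the same as over all 79 genes with at least 1000 reads. Over the 16 genes with at least 50% unique reads and at least 500 reads in the pair, the log2 ratios ran from -0.12 to 0.19 with DMAT (median 0.01) and from -0.10 to 0.25 with CX4945 (median 0.10), where 9 and 14 of them were above the control. Over the 22 genes under 10% the ranges were -0.58 to 0.14 and -0.03 to 0.67, with Rps27 at -0.58 and at 0.67. With DMAT the median changed sign between these groups, -0.06 under 10% unique reads and 0.01 at 50% or more. With CX4945 it stayed above 0 in both, at 0.08 and 0.10. The 41 genes at 10 to 50% ran from -0.50 to 0.11 with DMAT (median -0.03) and from -0.17 to 0.41 with CX4945 (median 0.09).

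Taken gene by gene, 43 of the 81 were below the control with DMAT and above it with CX4945, 26 were above with both, 7 below with both and 5 above with DMAT and below with CX4945. Over all 9262 genes with at least 20 reads in both pairs these classes held 23.7%, 26.9%, 25.7% and 23.7%. In 13 genes the interval lay below 1 with DMAT and above 1 with CX4945, where 0.788% of all genes had this, and in 0 the reverse (0.659%). Only Rpl34 had intervals above 1 with both (ratios 1.07 and 1.08), where 1.17% of all genes had this, and Rpl13 was alone with intervals below 1 with both (1.63% of all genes). These intervals narrow with depth, as above.

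**Figure D4:**
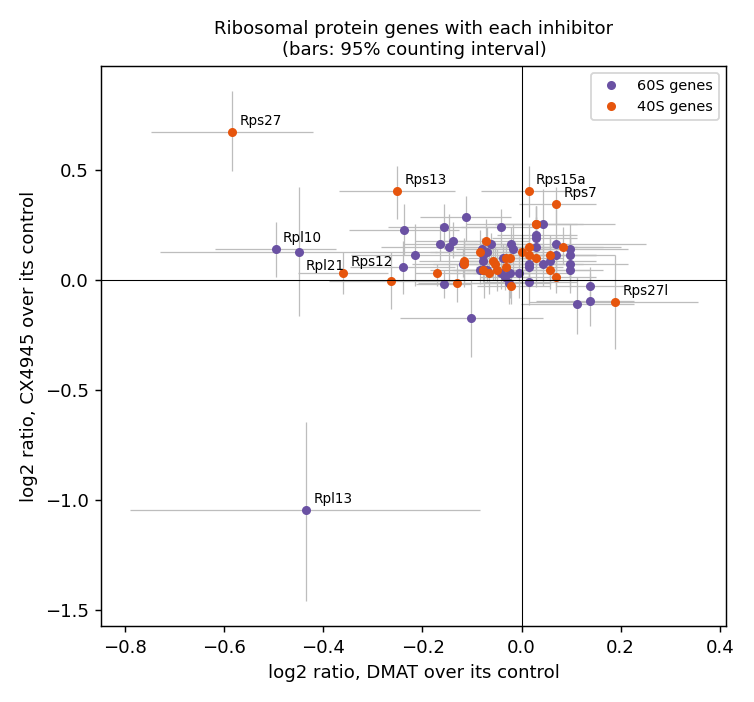
Log2 ratio with DMAT (x axis) and with CX4945 (y axis), each to its own control, for 81 ribosomal protein genes, 60S and 40S genes in different colours, with 95% counting intervals as bars. Most genes lie within 0.25 of 0 on both axes, Rps27 stands at the upper left and Rpl13 at the lower left.

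The P stalk consists of Rplp0, its base, and the acidic proteins Rplp1 and Rplp2. Rplp0 stood at 3556 CPM in the control for DMAT, 3388 with DMAT, 3291 in the control for CX4945 and 3374 with CX4945. Rplp1 stood at 2091, 1876, 1887 and 1862 CPM, and Rplp2 at 956, 977, 956 and 1098 CPM. For Rplp0 and Rplp1 the control for DMAT was the highest library, and for Rplp2 the CX4945 library was. Log2 ratios with DMAT were -0.07, -0.16 and 0.03, and with CX4945 0.04, -0.02 and 0.20 for Rplp0, Rplp1 and Rplp2. None of the 3 passed the joint test (adjusted p from 0.85 to 0.984 by edgeR with BH adjustment), and the values are mRNA levels that carry no information on phosphorylation.

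Rpl5 and Rpl11 travel with 5S RNA as a particle that can bind and hold back Mdm2. Rpl5 stood at 1796, 1747, 1769.7 and 1798 CPM in the order above, and Rpl11 at 926, 932, 983 and 1032 CPM. Their log2 ratios were -0.04 and 0.01 with DMAT and 0.02 and 0.07 with CX4945, and each of these 4 intervals held 1. For Rpl11 the interval with CX4945 excluded 1 once the reads of its copies were added (ratio 1.10, 1.04 to 1.17), the log2 ratio with CX4945 was 0.18 on exon-exon reads, and the control for CX4945 was above the control for DMAT (log2 ratio 0.09).

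In the small subunit, Rps6 stood at 1204, 1187, 1265 and 1238 CPM, and its log2 ratio was -0.02 with DMAT and -0.03 with CX4945. Rpsa, which is also known as the laminin receptor precursor, stood at 3059, 2720.4, 2756 and 2799 CPM, with the control for DMAT above the other 3 libraries. Rps27a, made as a fusion of ubiquitin with a ribosomal protein, stood at 821, 793, 794 and 818 CPM. Of these, the interval of the ratio excluded 1 only for Rpsa with DMAT (ratio 0.889, 0.861 to 0.918). The joint adjusted p lay at 0.924 for Rpsa, 0.981 for Rps6 and 0.997 for Rps27a by edgeR with BH adjustment.

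The genes with the lowest mean ratio over the 2 inhibitors, among 79 with at least 500 reads in each pair, were Rpl10, Rps12, Rpl7l1, Rps28, Rpl39 and Rplp1, with means from -0.18 to -0.09. Rpl10, which helps form the site where the subunits meet the tRNAs and is loaded late in 60S maturation, stood at 507, 359, 474 and 523 CPM. The DMAT library alone was low, at a ratio of 0.709 to its control (0.651 to 0.771), while the ratio with CX4945 was 1.10 (1.01 to 1.20). Rps12 stood at 837, 652, 789 and 807 CPM and Rps28 at 431, 359, 464 and 462 CPM. In both the DMAT library was again the lowest, with ratios of 0.779 (0.731 to 0.83) and 0.833 (0.764 to 0.909), and with CX4945 the ratios were 1.02 (0.956 to 1.09) and 0.997 (0.912 to 1.09).

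Rpl7l1, a paralog of Rpl7 known from nucleolar preribosomes, was lower in both libraries of the CX4945 experiment. It stood at 315 CPM in the control for DMAT, 294 with DMAT, 264 in the control for CX4945 and 234 with CX4945. The log2 ratios were -0.10 and -0.17, and -0.26 between the controls, a larger gap than with either inhibitor. Rpl39, a small protein of the peptide exit tunnel, stood at 606, 514, 534 and 555 CPM with log2 ratios of -0.24 and 0.05.

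Rps15a, Rps7, Rpl36al, Rps15 and Rpl37 were among the genes with the highest mean ratios, from 0.21 to 0.12. Rps15a stood at 584 CPM in the control for DMAT, 592 with DMAT, 511 in the control for CX4945 and 677 with CX4945. The CX4945 library was the highest and its own control the lowest, which gives ratios of 1.01 with DMAT (0.945 to 1.09) and 1.32 with CX4945 (1.22 to 1.43). Rps7 stood at 959, 1008, 967 and 1225 CPM, with the CX4945 library apart from 3 that lay close together. Its ratio was 1.27 with CX4945 (1.19 to 1.34), and 1.05 with DMAT (0.996 to 1.11).

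Rps15a and Rps7 had joint log2 fold changes of 0.21 ± 0.09 and 0.21 ± 0.08 (SE from the fit), with adjusted p of 0.628 and 0.525 by edgeR with BH adjustment. Rps15, also of the small subunit, stood at 822, 842, 857 and 1017 CPM. Here too the CX4945 library was the highest, with a ratio of 1.19 with CX4945 (1.12 to 1.26). Unique reads made up 62.1% for Rps15, and unique reads alone gave a log2 ratio of 0.25 with CX4945.

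Several members are pairs of paralogs, both expressed. Rps27 and Rps27l encode closely related zinc finger proteins of the small subunit and share 76.1% of 255 coding bases. Their first 90 coding bases, from GENCODE vM21, are shown because the 2 genes had opposite signs in each pair of libraries. Of the exon reads, 0.558% were unique for Rps27 and 83.7% for Rps27l. Capitals mark the 24 bases at which the 2 genes differ.
Rps27: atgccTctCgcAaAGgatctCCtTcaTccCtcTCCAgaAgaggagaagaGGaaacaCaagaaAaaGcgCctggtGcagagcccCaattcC
Rps27l: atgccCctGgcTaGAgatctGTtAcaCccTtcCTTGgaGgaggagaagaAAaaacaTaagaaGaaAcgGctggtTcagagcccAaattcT

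Rps27 (chr3:90016593-90017573, mm9) had 803 reads in the control for DMAT, 491 with DMAT, 428 in the control for CX4945 and 608 with CX4945. Scaled, this is 289, 193, 187 and 299 CPM, with the control for DMAT and CX4945 high and the other 2 libraries low. The ratio was 0.667 with DMAT (0.595 to 0.747) and 1.59 with CX4945 (1.41 to 1.81). Between the 2 untreated libraries it was 0.648 (0.575 to 0.729), as far from 1 as with DMAT. The joint fold change was 0.03 ± 0.17 on the log2 scale (adjusted p = 0.992, edgeR with BH adjustment), since the 2 inhibitors went opposite ways.

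Only 7, 1, 2 and 3 of these Rps27 reads were unique. Reads across exon junctions gave the same pattern, with 488, 304, 256 and 371 reads and log2 ratios of -0.54 and 0.73. Rps27l stood at 197, 225, 173 and 162 CPM, with DMAT the highest and CX4945 the lowest. Its log2 ratios were 0.19 (DMAT) and -0.10 (CX4945), the opposite sign of those of Rps27 in each pair. The interval with CX4945 held 1 (0.803 to 1.08).

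Of the other pairs, Rpl22 and Rpl22l1 share 70.2% of aligned coding bases. Rpl22 was at 599.6, 658, 565 and 529 CPM and Rpl22l1 at 182, 190.1, 183 and 205 CPM. Rpl22 had log2 ratios of 0.13 and -0.09, and Rpl22l1 of 0.07 and 0.17. Rpl22 was the higher of the 2 in CPM, and their order per length depends on the length used, with means of 202 and 388 RPKM per exon length but 60 and 77 as ranks per coding length. No interval of this pair excluded 1 except that of Rpl22 with DMAT (1.02 to 1.17). Rpl36a on the X chromosome and its relative Rpl36al (87.9% identical) stood at 300.2 and 219 RPKM, with log2 ratios of 0.10 and 0.06 for Rpl36a and 0.04 and 0.25 for Rpl36al. On unique reads those of Rpl36a were -0.08 and -0.09. With CX4945, Rpl36al had 0.08 on unique reads and 0.03 on exon-exon reads. Rpl7 (776 RPKM) and Rpl7l1 (106 RPKM) share 57.3% of aligned coding bases, and both were lower in the second experiment's control than in the first's (-0.20 and -0.26). Rpl3 and Rpl10 were expressed at 1581 and 227 RPKM while their tissue-restricted paralogs Rpl3l and Rpl10l (74.3% and 84.8% identical) had no reads, and Rpl39 at 385 RPKM while Rpl39l (85.3% identical) was near 0.

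Rpl13 (chr8:125626250-125629144, mm9) had 168 reads in the control for DMAT, 114 with DMAT, 174 in the control for CX4945 and 75 with CX4945. Both inhibitor libraries were below both controls, at 60.5, 44.8, 76.2 and 36.8 CPM. The ratio was 0.74 with DMAT (0.578 to 0.944) and 0.484 with CX4945 (0.364 to 0.638), and the joint log2 fold change was -0.72 ± 0.17 (adjusted p = 0.0664, edgeR with BH adjustment). It passed at an adjusted p of 0.029 with DESeq2's size factors, 0.0153 with total-count scaling, 0.041 on exon-exon reads and 0.0422 without the filter on low counts. It did not pass without the block (0.999), on unique reads (0.773), with DESeq2 (1.0), with scaling factors from the other genes (0.0516) or without any 1 library, from 0.0632 without DMAT and 0.319 without CX4945 to 1.0 without either control.

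These Rpl13 reads are few for a gene of its class, and a near-identical copy took more. The row named Gm15710 had 287, 422, 268 and 255 exon reads, none of them unique, and in GENCODE vM21 the transcript of that name differs from the 636 coding bases of Rpl13 at 1 base (G519A, counted from the A of the start codon, Rpl13 first). The 60 bases around that position, in capitals, show how little separates them.
Rpl13: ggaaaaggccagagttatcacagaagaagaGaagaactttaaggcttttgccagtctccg
Gm15710: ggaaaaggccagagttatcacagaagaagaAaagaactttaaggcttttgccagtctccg

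With the reads of all its copies added, Rpl13 came to 467, 547, 451 and 345 reads, its log2 ratio to 0.35 with DMAT and -0.22 with CX4945, and the joint fold change to 0.08 (adjusted p = 0.951, edgeR with BH adjustment). The inhibitor libraries were then no longer the lowest pair. Gm15710 itself had log2 ratios of 0.68 (DMAT) and 0.09 (CX4945) (joint adjusted p = 0.299, edgeR with BH adjustment). The file gives that row a span of chr5:91701001-92569955 (mm9), far longer than a transcript of Rpl13. Only 17, 11, 18 and 8 reads of Rpl13 were unique, and the rest fit more than 1 place.

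**Figure D5:**
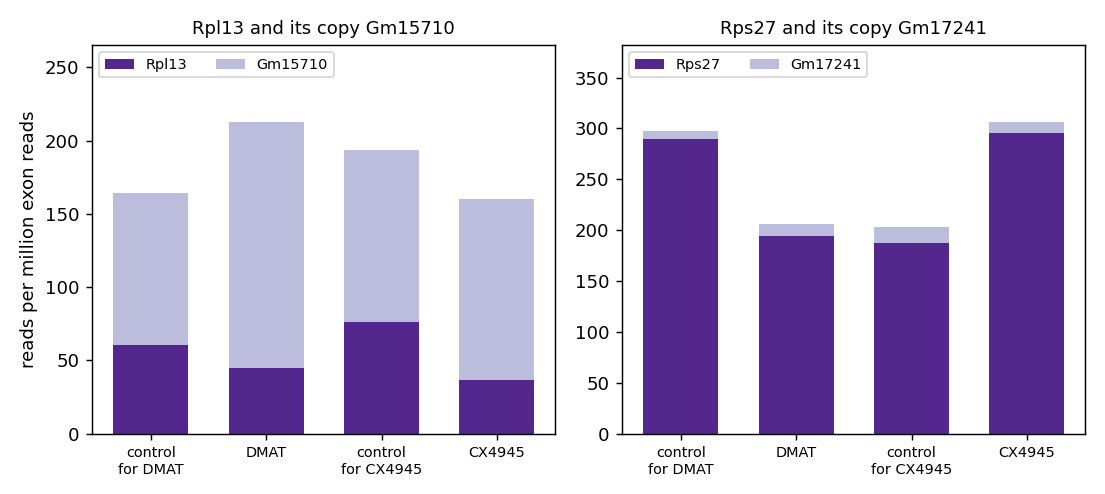
Reads per 1000000 exon reads on Rpl13 with its copy Gm15710 (left) and on Rps27 with its copy Gm17241 (right), stacked, per library. Rpl13 alone is lower in both inhibitor libraries, the stack of Rpl13 and Gm15710 is highest with DMAT, and the Rps27 bars keep their high and low libraries with the copy added.

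Rps27 differs in this. Its copy Gm17241, which matches over 252 of 255 coding bases with 2 differences (T31G and G60A, counted as above, Rps27 first), had 22, 30, 36 and 21 reads, and adding all copies left log2 ratios of -0.53 and 0.60. The first 60 coding bases hold both differences, in capitals.
Rps27: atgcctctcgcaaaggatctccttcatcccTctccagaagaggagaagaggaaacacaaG
Gm17241: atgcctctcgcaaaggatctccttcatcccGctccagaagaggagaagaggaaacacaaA

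Rpl21, the other gene of low level, had 268 reads in the control for DMAT, 180 with DMAT, 198 in the control for CX4945 and 193 with CX4945. Scaled, this is 96.5, 70.7, 86.7 and 94.8 CPM, with the DMAT library the lowest, and the ratio was 0.732 with DMAT (0.603 to 0.888) and 1.09 with CX4945 (0.892 to 1.34). Only 24.1% of the reads of Rpl21 were unique, and 33 of its 57 copies have a row in the files. With the reads of those copies added, its ratio with DMAT was 0.751 (0.623 to 0.905). Reads on its other copies could not be added, so its low level may in part reflect where reads were placed, which was not tested. Rpl28 of the large subunit stood at 508, 456, 611 and 721 CPM, higher in both libraries of the CX4945 experiment, so that its ratio between the controls, 1.20 (1.12 to 1.30), was as large as with CX4945, 1.18 (1.10 to 1.27). Rps13 stood at 496, 417, 438 and 577 CPM with ratios of 0.84 (0.775 to 0.911) and 1.32 (1.21 to 1.43).

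All copies together held 0.0831%, 0.0953%, 0.0889% and 0.106% of exon reads in the order above, and were lower in each control than with the inhibitor. Their summed reads stood at 1.138 of the control with DMAT (1.075 to 1.206) and at 1.205 with CX4945 (1.133 to 1.28), and the control for CX4945 at 1.071 of the control for DMAT (1.008 to 1.137). In the DMAT pair the copies went from 2305 to 2406 reads, and Gm15710 alone from 287 to 422. Among 21 ribosomal protein pseudogenes with a -ps name that entered the joint fit, 1 passed, where 0.561% of all genes did, and 5 (23.8%) had an unadjusted p under 0.05, where 7.23% of all genes did. Rpsa-ps12 had 93, 28, 62 and 19 reads and fell (log2 fold change -1.57 ± 0.28, adjusted p = 0.00955, edgeR with BH adjustment), with 2.48% of its reads unique. Rpsa-ps10, another copy of Rpsa, had 75, 56, 129 and 262 reads, and Rpsa itself between 5699 and 8494.

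Genes around the ribosomal proteins were read from lists of function. Fau and Gnb2l1 (Rack1) lie outside the naming rule but also encode proteins of the small subunit. Fau, a fusion of a ubiquitin-like and a ribosomal protein, stood at 618, 595, 638 and 737 CPM, with log2 ratios of -0.05 and 0.21 and the CX4945 library the highest. Gnb2l1, a scaffold for signalling proteins on the ribosome, had 5564, 5019, 4258 and 4153 reads and log2 ratios of -0.02 and 0.13. Neither passed the joint test (adjusted p of 0.933 and 0.952 by edgeR with BH adjustment). Of 18 translation genes with TOP mRNAs, elongation factors and Pabpc1 among them, 0 passed, with medians of 0.04 and 0.07. Eef1a1, the factor that delivers tRNAs, had 19404, 16619, 17970 and 22610 reads, highest with CX4945 at a log2 ratio of 0.50, and -0.10 with DMAT.

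No gene passed among 15 of mTORC1 and S6 kinase signalling, among 8 dedicated ribosomal protein chaperones or among 16 of ribosome assembly. At an unadjusted p under 0.05 there were 4 genes (22.2%), 3 (20.0%), 0 and 2 (12.5%) in the TOP, mTORC1, chaperone and assembly lists, against 7.23% of all genes. The joint log2 fold changes had mixed signs. In the TOP list they were 0.20 for Pabpc1 and Eif3f, -0.16 for Npm1 and -0.20 for Hnrnpa1. In the mTORC1 list they were -0.48 for Eif4ebp1, -0.27 for Rps6ka3 and 1.42 for Rps6ka2, the last on 5, 15, 6 and 12 reads. In the assembly list they were 0.32 for Ubtf and -0.19 for Dkc1. The medians of these lists lay between -0.02 and 0.04 with DMAT and between -0.02 and 0.07 with CX4945. Of 76 genes of the mitochondrial ribosome 0 passed, with 1 (1.32%) at an unadjusted p under 0.05, and their medians were -0.01 and -0.04, beside -0.03 and 0.09 for the cytosolic genes. The difference between the 2 families was not tested.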

How the data were processed

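RNA sequencing of 4 libraries was analysed, 1 per group. Each deposited file gives whole-number counts per feature made by the authors, with no normalization: total exon reads (a read that fits several places counts too), unique exon reads and exon-exon reads. The submitters' processing notes name CASAVA 1.8.2 and the build mm9. For the aligner, the annotation and how reads were counted, the entry is: not given in the sources used here. No column lacked a sample.

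Library sizes were scaled by TMM in edgeR 4.0.16 under R 4.3.3, with factors from 0.9899 to 1.009. Log2 ratios of CPM used a prior count of 2 and at least 20 reads in the pair. With 1 library per arm they carry no p-value. Intervals are exact (Clopper-Pearson) at 95% and cover counting error only, because PCR reads without identifiers can repeat a molecule. RPKM used the exon length of the files.

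The joint fit was edgeR's quasi-likelihood test on genes kept by filterByExpr, with the pair named in the titles as a block, 1 residual degree of freedom and BH adjustment (threshold 0.05). The SE is the absolute log2 fold change divided by the square root of F. As a check of that pairing, the gap between experiments in the control libraries was correlated with the gap in the inhibitor libraries over 6969 genes with 200 reads or more (Pearson's r = 0.425, across genes, and 0.071 over the 81 ribosomal protein genes), from 2 pairs only. DESeq2 1.42.0, other scalings, read types and filters, other controls and left-out libraries were alternatives. Adding copies to their parents was chosen after seeing the data. Copies were found with blastn 2.17.0 among GENCODE vM21 transcripts (at least 95% identity over 50% of the coding sequence and 25% of the transcript). Scripts were tested on simulated data.

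Named genes were those past the joint test, the 6 highest and 6 lowest by mean log2 ratio of both inhibitors, the 4 highest and 4 lowest by RPKM, members fixed by role and 7 paralog pairs. Others named were chosen after their values were seen. Some genes that this rule names are not reported here. The genes, lists and tests were chosen with earlier results of these data known.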

Additional observations from a re-analysis of the deposited data

Results flagged for a closer look

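In 13 ribosomal protein genes the 95% counting interval of the ratio lay below 1 with DMAT and above 1 with CX4945, and this opposite direction marked them for a closer look. The difference was not tested, since each direction rests on 1 library per arm. Rps27 had a log2 ratio of -0.58 with DMAT and of 0.67 with CX4945, the widest gap of the 13. Rpl10, of the large subunit, had -0.50 and 0.14, and Rps13, of the small subunit, had -0.25 and 0.40. The other 10 are all genes of the large subunit and had smaller gaps. Rpl10a had -0.16 and 0.17, and Rpl12 had -0.08 and 0.11. For Rpl13a the values were -0.08 and 0.13, and for Rpl19 they were -0.14 and 0.18. Rpl27 had -0.24 and 0.22, and Rpl27a had -0.11 and 0.28. For Rpl28 the values were -0.16 and 0.24, and for Rpl3 they were -0.06 and 0.16. Rpl4 had -0.08 and 0.09, and Rpl41 had -0.12 and 0.08. Between the untreated libraries the log2 ratio was -0.62 for Rps27, -0.10 for Rpl10, -0.18 for Rps13 and 0.27 for Rpl28. The control for DMAT was the higher control in 12 of the 13, and Rpl28 was the exception. Of the 13 genes, Rpl4 and Rpl13a have at least 50% unique reads. Over all genes with at least 20 reads in both pairs, 73 of 9262 had this pattern and 61 the reverse, and of the ribosomal protein genes 0 had the reverse. Most of those genes are read less deeply, and the intervals narrow with depth. The share with this pattern among genes of like depth was not taken.

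The summed reads of the 84 genes showed the same opposite direction, with ratios of 0.9685 with DMAT and 1.067 with CX4945. This difference was not tested either, and the ratio between the untreated libraries was 0.9663.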

How the results depend on the processing

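The median log2 ratio with CX4945 was above 0 under every setting run, from 0.046 against the control of the other experiment to 0.130 on exon-exon reads, with 0.077 under total-count scaling and 0.077 against the mean of both controls, beside 0.091. With DMAT (-0.033) it was -0.022 under total-count scaling, -0.009 on exon-exon reads, -0.009 against the other control, -0.023 against the mean of both controls and 0.014 over the genes with at least 50% unique reads, where its sign changed. The other settings moved neither median beyond the counting error of the reads summed over the 84 genes, and none moved that between the controls. This yardstick belongs to the sum, since no interval was computed for a median.

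The share of reads on these genes follows the kind of read: 3.58%, 3.51%, 3.44% and 3.66% of unique reads and 13.1%, 13.0%, 12.7% and 13.6% of exon-exon reads in the order DMAT's control, DMAT, CX4945's control, CX4945. With -ps pseudogenes added the CX4945 share was 8.69%.

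Without the pair as a block, edgeR called 1 gene in place of 54, and 0 ribosomal protein genes. DESeq2 with the block called 3 genes, edgeR with DESeq2's size factors 84, total-count scaling 101, unique reads 108 and exon-exon reads 14. Leaving out 1 library, without the block, gave 1 to 73 genes: 1 without either control library, 73 without DMAT and 64 without CX4945, and 0 ribosomal protein genes each time. The lone library of an arm is then assumed to vary like the others. Rpl13 was the 1 ribosomal protein gene called with DESeq2's size factors, total-count scaling, exon-exon reads or no filter. With copies added its joint log2 fold change was 0.08 in place of -0.72. The causes were not tested. Of 64 single-gene ratios, 29 moved beyond counting error against the other control, 23 on unique reads, 10 on exon-exon reads, 2 with copies added and 0 with DESeq2's size factors. Counting error here is that of the main ratio on total exon reads, whatever the setting. Unique reads are few in most of these genes and have a wider error of their own, as have exon-exon reads. A move on these reads can therefore lie within their own counting error.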
